A study of Mus musculus with 27 samples.

Results

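The actin stress fibre and contractile genes described here were 10 named genes, Acta2, Tagln, Tpm1, Tpm2, Tpm4, Myl9, Cnn1, Cnn2, Actn1 and Flna, given as a list of names that was chosen with earlier results of these data known. All 10 were among the 23295 genes of the RNA-seq table of parental cells, and 9 were among the 24247 genes of the table of shRNA-infected cells, where Tpm1 was not analysed here. The cells were NMuMG, a mouse line derived from normal mammary epithelium, grown with insulin and left untreated or given TGF-β for 8 h or 24 h to drive epithelial-to-mesenchymal transition (EMT). The labels give TGF-β as 1 to 5 ng/ml. RNA-seq covered parental cells, cells infected with lentivirus carrying an irrelevant shRNA (control), and cells infected with an shRNA against lamin B1 (KD), with 2 libraries per group and time, 6 parental and 12 shRNA libraries in all. The methods describe infected cells as selected with puromycin and call the 2 libraries of a group biological replicates. Lamin B1 ChIP-seq and ATAC-seq of parental cells gave 1 library per time each, so no value from their peaks carries a replicate error.

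Stress fibres are bundles of actin filaments held together by α-actinin and filamin, wrapped by tropomyosin, and pulled by non-muscle myosin II, whose regulatory light chains are phosphorylated by myosin light chain kinase. Epithelial cells that undergo EMT exchange a cortical actin belt for such bundles. Many genes of the bundle are targets of serum response factor and its actin-sensing coactivators, which act through the CArG box, and several of them (Acta2, Tagln, Cnn1) are better known as products of smooth muscle and of myofibroblasts.

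The upstream sequences of 3 of the genes are given because these genes differ in level, in response and in whether lamin B1 was found at their start. They were read from RefSeq promoters (GRCm38.p6), matched exactly to mm9, printed 5′ to 3′ in the direction of transcription, and end before the more upstream of the RefSeq and GENCODE starts. That is the GENCODE start for Cnn2 and Myl9 and the RefSeq start for Acta2. Capitals mark an exact CArG box (CCWWWWWWGG, W being A or T) in Cnn2 and Myl9. In Acta2 they mark the letters GGAATG, the core of the MCAT element bound by TEAD factors. The 3 regions are chr10:79451095-79451328 on the plus strand (Cnn2), chr2:156600950-156601155 on the plus strand (Myl9) and chr19:34329864-34330113 on the minus strand (Acta2).
Cnn2: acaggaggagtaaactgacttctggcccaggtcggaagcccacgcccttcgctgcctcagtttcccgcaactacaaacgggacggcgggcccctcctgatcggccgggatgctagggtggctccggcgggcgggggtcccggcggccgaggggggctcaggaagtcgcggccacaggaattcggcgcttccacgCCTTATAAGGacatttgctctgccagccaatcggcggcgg
Myl9: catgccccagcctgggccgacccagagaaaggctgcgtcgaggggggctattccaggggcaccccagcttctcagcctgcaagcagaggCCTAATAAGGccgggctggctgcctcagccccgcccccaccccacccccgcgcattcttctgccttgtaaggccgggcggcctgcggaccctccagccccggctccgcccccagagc
Acta2: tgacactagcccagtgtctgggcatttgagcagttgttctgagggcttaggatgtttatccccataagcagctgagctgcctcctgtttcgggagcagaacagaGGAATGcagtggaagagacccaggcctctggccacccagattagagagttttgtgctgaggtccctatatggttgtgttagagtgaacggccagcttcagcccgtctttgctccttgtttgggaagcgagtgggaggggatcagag

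RefSeq promoters were found for 9 of the 10 genes, each as 250 bases before and 50 after the start. An exact CArG box, searched on both strands, was present in 2 of these 9 promoters and in 535 of all 32851 promoters (1.63%). It was at base -56 of Cnn2 and base -161 of Myl9, counted from RefSeq starts that lie past the end of the printed sequences. Letters that miss this form by a single base were not counted, and the Acta2 sequence above holds them in ccctatatgg and ccttgtttgg. GGAATG, also searched on both strands, was present in 3 of 9 (Acta2, Tpm1 and Flna) and in 14.7% of all promoters. The G and C content of the 250 upstream bases ran from 53.6% in Acta2 and 59.2% in Cnn1 to 78.8% in Tpm4, beside a median of 52.4% over all promoters. A match is a description of the letters only, and the absence of one says nothing about the factor.

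Levels are given as FPKM (fragments scaled to the length of the transcript and to the mapped reads of the library), which allows genes to be set side by side. The 2 tables were normalized separately, so levels are compared within a table. Lmnb1, the targeted gene, ran from 29.2 to 36.5 FPKM in untreated control libraries and from 9.01 to 9.27 in untreated KD libraries. It was lower in KD than in control cells at all 3 times, with differences of -1.73, -1.90 and -1.50 in log2(FPKM + 1). Lmnb1 means also fell by 24 h of TGF-β. They went from 36.6 to 18.5 FPKM in parental, from 32.9 to 18.1 in control and from 9.14 to 5.94 in KD cells. Replicate libraries correlated at r = 0.971 to 0.990 across genes, except those of KD cells at 24 h (r = 0.960). Several results of the listed genes that rest on these are therefore also given with 1 of them left out. Results of other named genes in KD cells at 24 h are from the fit of all libraries alone.

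The epithelial keratins Krt8 and Krt18 were at 1720 FPKM or more in every library, as in simple epithelium. Epcam, another epithelial marker, was low throughout, from 0.171 to 1.17 FPKM in parental and from 0.202 to 3.15 in shRNA libraries. Cldn4 ran from 0.0923 to 9.19 FPKM in parental libraries and reached at most 9.78 in shRNA libraries. Krt19 varied widely, from 55.5 to 1010 FPKM in parental libraries and up to 1190 in shRNA libraries. Cdh1 ran from 39.4 to 119 FPKM in parental and from 26.8 to 127 in shRNA libraries. Of these 6 epithelial genes, 4 had a mean of 1 FPKM or more in untreated cells of each kind. The smooth muscle marker list summed to 19.7 to 44.2 FPKM in parental and 16.0 to 55.2 in shRNA libraries, most of it Smtn. Des ran from 3.21 to 4.57 FPKM in parental libraries and reached at most 0.0274 in shRNA libraries. Myh11, Myocd and Lmod1 reached at most 0.0724, 0.235 and 0.0256 FPKM in parental libraries and 0.123, 0.00386 and 0.0332 in shRNA libraries. The endothelial list stayed at or below 1.51 FPKM, the immune list at or below 1.94 and the myoepithelial list at or below 6.12 in parental libraries, and up to 29.8 in shRNA libraries at 8 h. The fibroblast list summed to 5.12 to 6.29 FPKM in parental libraries and at most 0.686 in shRNA libraries. A list of 10 heart muscle genes, written after their values were seen, summed to 322 to 417 FPKM in the 6 parental libraries, with all 10 genes above 1 FPKM at each time, and to at most 0.214 FPKM in the 12 shRNA libraries. Transcripts of heart muscle were thus present in every parental library, and their group means at 8 and 24 h were 1.08 and 1.18 times the untreated mean. Their part in the parental levels of Acta2, Tagln, Tpm1, Tpm2, Myl9 and Cnn1 was not tested.

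In untreated parental cells the 10 genes differed widely in level. Tpm1 had the highest mean (465 FPKM), followed by Tpm4 (263), Flna (171), Actn1 (126), Cnn2 (38.4), Myl9 (6.76), Acta2 (2.62), Tagln (0.934), Tpm2 (0.477) and Cnn1 (0.216). No 2 neighbours in this order overlapped between their libraries. In untreated control cells the order was Tpm4 (259), Flna (189), Actn1 (124), Cnn2 (39.5), Tagln (0.473) and Acta2 (0.0815), and below these Tpm2, Cnn1 and Myl9, whose values overlapped their neighbour's. Set side by side with no test, the abundant genes had like values in the separately normalized tables, and Acta2, Myl9 and Tpm2 had far lower values in that of the infected cells.

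**Figure D1:**
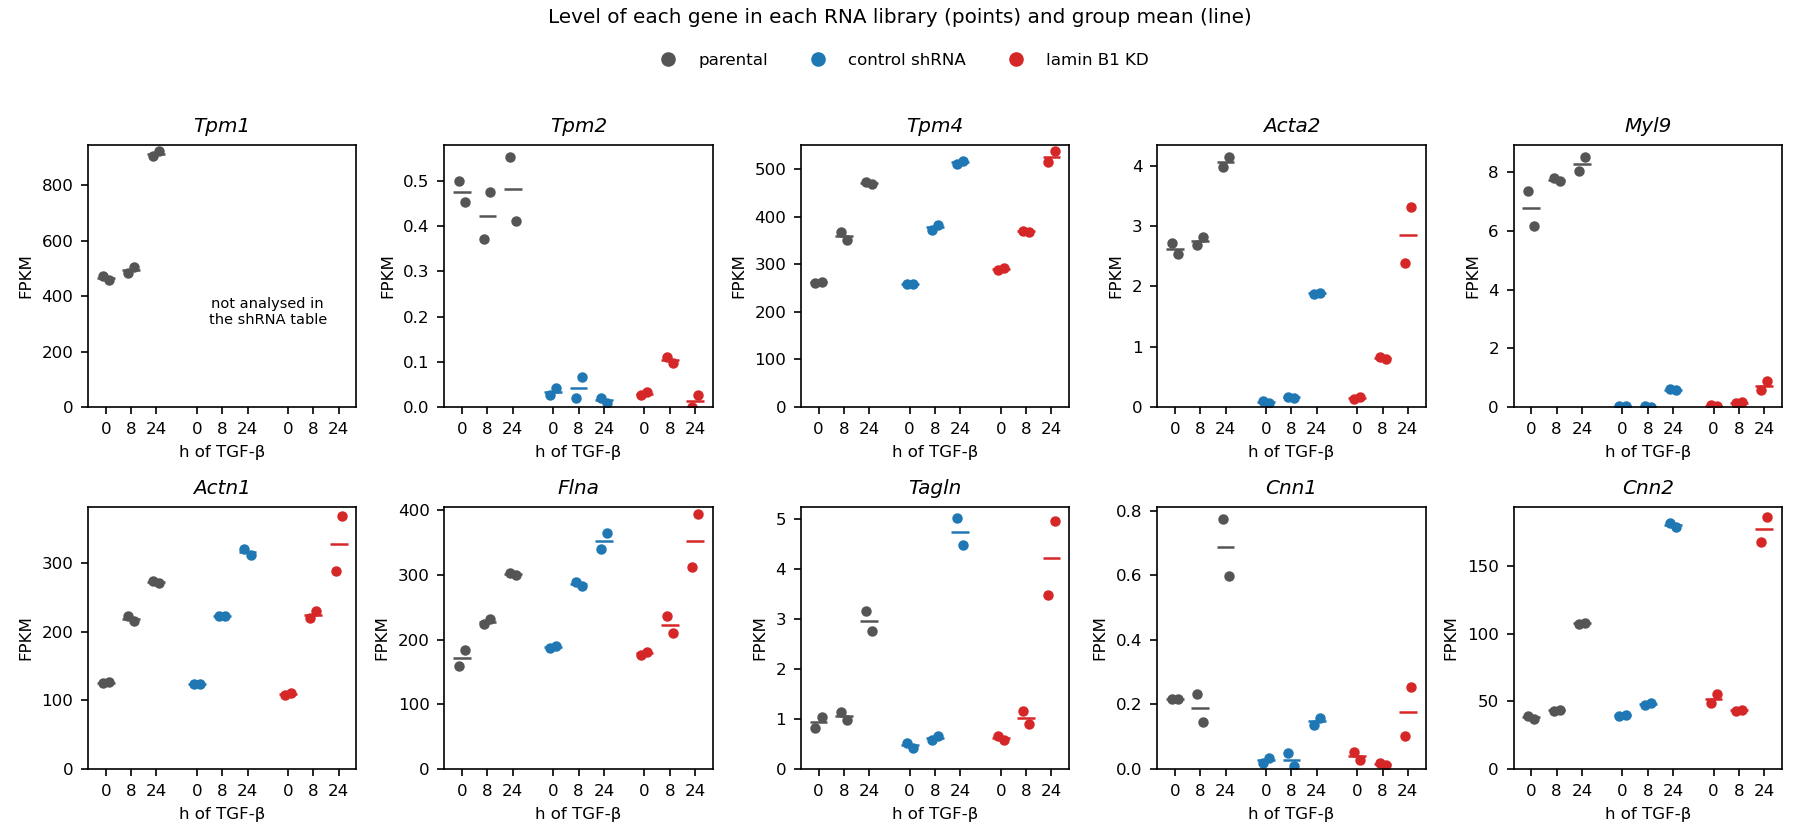
FPKM of the 10 genes in each RNA library (points) with group means (lines), by hours of TGF-β, for parental (grey), control shRNA (blue) and lamin B1 KD cells (red). The axis of each gene starts at 0, the 2 tables were normalized separately, and Tpm4, Actn1, Flna and Cnn2 at 24 h lie above every untreated library of the same cells.

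The first comparison asked how the genes moved when parental cells were treated with TGF-β. All 8 genes that could be tested rose by 24 h, by 0.26 (Myl9) to 1.46 (Cnn2) in log2(FPKM + 1). At 8 h 4 of the 8 had risen, namely Actn1, Tpm4, Flna and Cnn2. All 4 encode proteins that bind the filament and were already at 37.3 FPKM or more without TGF-β. The same holds for Tpm1, which was not called at 8 h. Genes called higher made up 22.4% of the 11309 genes tested at 8 h and 33.4% at 24 h, and 7 of the 8 rose further from 8 to 24 h, where 27.7% of all genes did. The median difference of the 8 genes was 0.17 at 8 h and 0.91 at 24 h, beside -0.05 and -0.02 over all genes tested. Cnn1 and Tpm2 were below 1 FPKM in every parental library and were not tested, and the 8 tested genes are those that reached 1 FPKM in at least 2 libraries.

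Tropomyosins lie along the filament groove and control which motors and severing proteins reach it. Tpm1 was at 473 and 457 FPKM in untreated parental cells, at 485 and 504 after 8 h, and at 906 and 923 after 24 h. Its 8 h libraries lay above the untreated ones by less than the test could call (0.09 ± 0.04 SE in log2(FPKM + 1), adjusted p = 0.119), and by 24 h it had risen 1.97-fold (0.97 ± 0.04, adjusted p = 2.43e-06). Tpm4 rose in steps, from 262 and 264 FPKM to 368 and 351 and then to 474 and 469, with no overlap between times. Its differences from untreated cells were 0.45 ± 0.04 (adjusted p = 0.000155) and 0.84 ± 0.04 (adjusted p = 3.25e-06). Tpm2 was between 0.371 and 0.553 FPKM in all 6 libraries, and the times overlapped.

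Acta2 encodes the smooth muscle α-actin that marks myofibroblasts, and Myl9 a regulatory light chain of myosin II. Acta2 was at 2.71 and 2.53 FPKM in untreated cells, at 2.68 and 2.82 after 8 h, and at 3.98 and 4.14 after 24 h. The first 2 times overlapped, and the 24 h libraries stood above both (0.48 ± 0.06 against untreated, adjusted p = 0.00037). The muscle actin genes are near-identical in coding sequence, and Actc1, the heart actin, was at 65.6 FPKM or more in these libraries, so the division of reads between them is uncertain. Myl9 was at 7.37 and 6.16 FPKM, at 7.80 and 7.69, and at 8.05 and 8.50, which was called at 24 h (0.26 ± 0.08, adjusted p = 0.0214). This 1.22-fold rise was close to the 1.18-fold higher sum of the heart muscle list, and the call was lost when untreated replicate 2 (difference 0.15) or either 24 h library was left out.

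α-Actinin and filamin cross-link the filaments and tie them to focal adhesions. Actn1 was at 125 and 127 FPKM in untreated parental cells, at 223 and 215 after 8 h, and at 273 and 271 after 24 h. Every time stood clear of the others, and most of the rise was present by 8 h (0.79 ± 0.04, adjusted p = 2.94e-05, and 1.11 ± 0.04 at 24 h, adjusted p = 9.86e-07). Flna followed with 159 and 183 FPKM, 224 and 231, and 303 and 299. Its differences were 0.41 ± 0.07 (adjusted p = 0.00186) and 0.82 ± 0.07 (adjusted p = 3.44e-05).

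Transgelin (Tagln) and the calponins (Cnn1, Cnn2) are a family of actin-binding proteins, of which Cnn2 is the broadly expressed member and the other two are typical of smooth muscle. Cnn2 was at 39.5 and 37.3 FPKM, at 43.0 and 43.6 after 8 h, and at 107 and 108 after 24 h. The small 8 h difference (0.17 ± 0.04, adjusted p = 0.0112) was lost without untreated replicate 2 (0.13), and by 24 h the gene was 2.80-fold higher (1.46 ± 0.04, adjusted p = 6.18e-07). Tagln was at 0.817 and 1.05 FPKM, at 1.13 and 0.988, and at 3.17 and 2.76, so that only the 24 h libraries stood apart (1.04 ± 0.09, adjusted p = 5.61e-05). Cnn1 was at 0.216 FPKM in both untreated libraries, at 0.233 and 0.146 after 8 h, and at 0.774 and 0.599 after 24 h, below the filter. Tested without the filter it was called at 24 h (0.47, adjusted p = 0.00284).

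The shRNA table repeats the TGF-β comparison in control cells that were infected with an irrelevant shRNA, and that hold almost none of the heart muscle transcripts. Of the 6 genes tested, 4 had risen at 8 h (Actn1, Flna, Tpm4 and Cnn2) and all 6 at 24 h, where genes called higher made up 19.4% and 25.5% of the 11450 tested. Acta2 reached 1 FPKM only at 24 h, and Tagln only at 24 h and in 1 KD library at 8 h, so both entered the test through the groups in which they were high and their calls add nothing to the count. The median of all genes moved by -0.143 and -0.134 at 8 and 24 h in control cells and by -0.131 and -0.103 in KD cells, and the members' differences stand against that shift. Under quantile normalization the share of genes called higher rose to 26.9% and 34.1% in control cells, from a split of 19.4% higher and 44.9% lower to 26.9% and 31.7% at 8 h, and no call of a listed gene on the response to TGF-β changed in either shRNA line.

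Cnn2 had the largest 24 h difference of the 6 genes in control cells on the log2(FPKM + 1) scale, while the ratio of means was larger for Acta2 (23.2) and Tagln (10.1). It was at 38.8 and 40.2 FPKM without TGF-β, at 47.4 and 48.9 after 8 h, and at 182 and 179 after 24 h, a 4.56-fold rise (2.16 ± 0.06, adjusted p = 1.44e-08). Tagln went from 0.522 and 0.424 FPKM to 0.579 and 0.667 and then to 5.02 and 4.49, which is a 24 h difference of 1.97 ± 0.13 (adjusted p = 1.35e-06). Acta2 was at 0.103 and 0.0597 FPKM, at 0.166 and 0.154, and at 1.88 and 1.89, a difference of 1.42 ± 0.10 (adjusted p = 2.15e-06). The heart muscle list, Actc1 included, summed to at most 0.214 FPKM in these libraries. The Acta2 mean went from 0.0815 to 1.89 FPKM in control cells and from 2.62 to 4.06 in parental cells.

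The abundant genes behaved in control cells much as in parental cells, in tables that cannot be tested against each other. Actn1 was at 124 and 123 FPKM, at 223 in both 8 h libraries, and at 320 and 312 after 24 h (1.35 ± 0.09, adjusted p = 1.84e-06). Tpm4 was at 260 and 259 FPKM, at 373 and 383, and at 512 and 518 (0.99 ± 0.03, adjusted p = 3.27e-08). Flna was at 187 and 190, at 289 and 282, and at 340 and 364 (0.90 ± 0.10, adjusted p = 3.83e-05). Every time of these 3 genes was clear of the others. Myl9 was listed at 0.0188 and 0.0182 FPKM, at 0.0166 and 0, and at 0.624 and 0.565, and Cnn1 and Tpm2 did not exceed 0.159 FPKM, so these 3 genes were below the filter. Tested without the filter, Myl9 (0.65, adjusted p = 0.000163 by limma) and Cnn1 (0.16, adjusted p = 0.0343) were called higher at 24 h. Tpm2 was not called at either time.

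In KD cells the same 6 genes were again higher at 24 h (28.6% of all genes tested were called higher), by 0.86 (Tpm4) to 1.75 (Cnn2), and all 6 remained so without either of the 24 h libraries. At 8 h 5 of the 6 were called higher, beside 23.0% of all genes, and Cnn2 was called lower, beside 44.8%. Acta2 and Tagln entered the test through groups in which they were high, as in control cells. Their calls add nothing to the counts at 8 and 24 h. The 8 h count fell when single libraries were left out, and the share of all genes called fell with it. Acta2 was at 0.125 and 0.162 FPKM in untreated KD cells and already at 0.834 and 0.802 after 8 h (0.67 ± 0.10, adjusted p = 0.000321), then at 2.39 and 3.31 after 24 h. Tagln was at 0.654 and 0.576, at 1.16 and 0.898, and at 3.47 and 4.97, and its 8 h call (0.33 ± 0.13, adjusted p = 0.048) was lost in every fit without an untreated or 8 h KD library. Cnn2 went from 48.8 and 55.2 FPKM down to 43.2 and 43.5 and then up to 168 and 186, with a fall of -0.26 ± 0.06 at 8 h (adjusted p = 0.00647) that was lost without untreated KD replicate 2 (-0.17). This fall is beyond the shift of all genes and was -0.21 under quantile normalization.

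Actn1 in KD cells was at 108 and 111 FPKM, at 219 and 230, and at 287 and 368. The 24 h libraries spread more than at any other time, and both lay above 8 h (1.03 ± 0.09 at 8 h, adjusted p = 1.38e-05, and 1.56 ± 0.09 at 24 h, adjusted p = 6.49e-07). Flna was at 176 and 181, at 237 and 209, and at 313 and 393, with an 8 h difference of 0.32 ± 0.10 (adjusted p = 0.0181) that was lost without either untreated library or 8 h replicate 1 (0.23). Tpm4 was at 289 and 293, at 371 and 368, and at 516 and 538. Myl9 stayed below the filter at 0.0630 and 0.0361 FPKM, at 0.131 and 0.165, and at 0.571 and 0.890. Cnn1 and Tpm2 did not exceed 0.254 and 0.111 FPKM. Without the filter, Myl9 (0.72, adjusted p = 8.82e-05 by limma) and Cnn1 (0.18, adjusted p = 0.0225) were called higher at 24 h. Tpm2 was called higher at 8 h, against untreated KD cells (0.10, adjusted p = 0.00614) and against control cells (0.08, adjusted p = 0.0347).

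**Figure D2:**
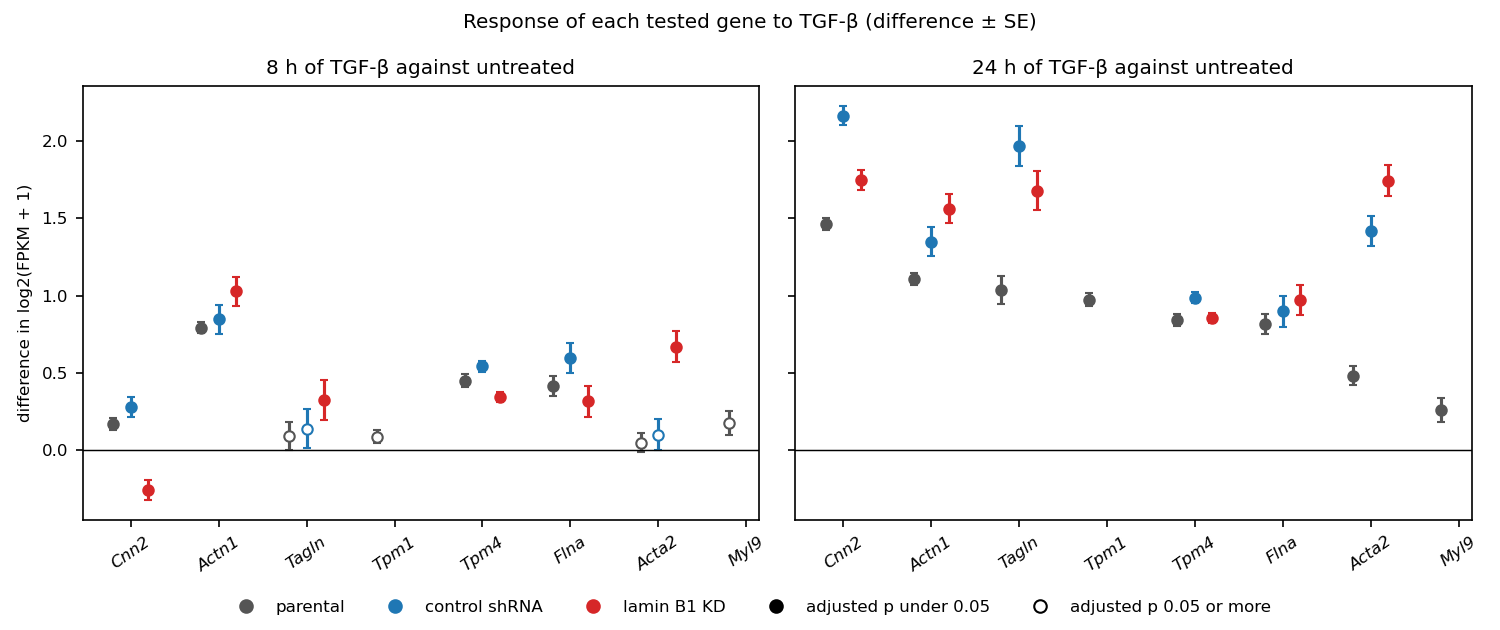
Difference in log2(FPKM + 1) from untreated cells ± SE of the fit after 8 h (left) and 24 h (right) of TGF-β, for each tested gene in parental (grey), control shRNA (blue) and KD cells (red), with filled points for an adjusted p under 0.05. At 24 h all 20 points lie above 0 and are filled. At 8 h Actn1, Tpm4 and Flna are filled in all 3 kinds of cell while Cnn2 in KD cells lies below 0. In control shRNA and KD cells Acta2 and Tagln entered the test through groups in which they were high. Their filled points there add nothing to the count.

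The direct comparison of KD with control cells asked which of the genes depended on the lamin B1 shRNA at each time. Without TGF-β 2 of the 6 tested genes were called (19.7% of all genes tested were), at 8 h 2 of 6 (35.8%), and at 24 h 1 of 6 (28.3%). The median difference of the 6 genes was 0.11, -0.01 and 0.01 at the 3 times.

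Acta2 was the gene with the clearest difference. At 8 h it was 5.11-fold higher in KD cells (0.834 and 0.802 FPKM against 0.166 and 0.154), a difference of 0.65 ± 0.10 (adjusted p = 0.00171), and the 2 groups did not overlap. At 24 h it was 1.51-fold higher (2.39 and 3.31 against 1.88 and 1.89, 0.40 ± 0.10, adjusted p = 0.018), a call that was lost without either control library and when only these groups were fitted (adjusted p = 0.15). In untreated cells the difference of 0.08 ± 0.10 was not called. All these values are low, at most 3.31 FPKM, where an added constant of 1 shrinks the differences. With a constant of 0.1 the 24 h difference was 0.55 ± 0.20 and was no longer called (limma adjusted p = 0.0656).

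Flna was the only gene of the list called lower in KD cells, at 8 h (237 and 209 FPKM against 289 and 282, -0.36 ± 0.10, adjusted p = 0.0214). The call was lost without either control library or without KD replicate 2 (-0.27). Cnn2 and Tpm4 were higher in KD cells before TGF-β, Cnn2 at 48.8 and 55.2 FPKM against 38.8 and 40.2 (0.39 ± 0.06, adjusted p = 0.00502), and Tpm4 at 289 and 293 against 260 and 259 (0.16 ± 0.03, adjusted p = 0.0124). The Tpm4 call was lost without either untreated KD library, and both calls were lost when only these groups were fitted (adjusted p = 0.0661 for Tpm4 and 0.0596 for Cnn2). By 24 h neither differed beyond its spread (-0.03 ± 0.06 and 0.03 ± 0.03). Actn1 was not called at any time, and its sign at 24 h turned on the KD libraries, from 0.22 without replicate 1 to -0.14 without replicate 2. Without KD replicate 2 the Tagln difference at 24 h was -0.36, against -0.15 with all libraries.

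**Figure D3:**
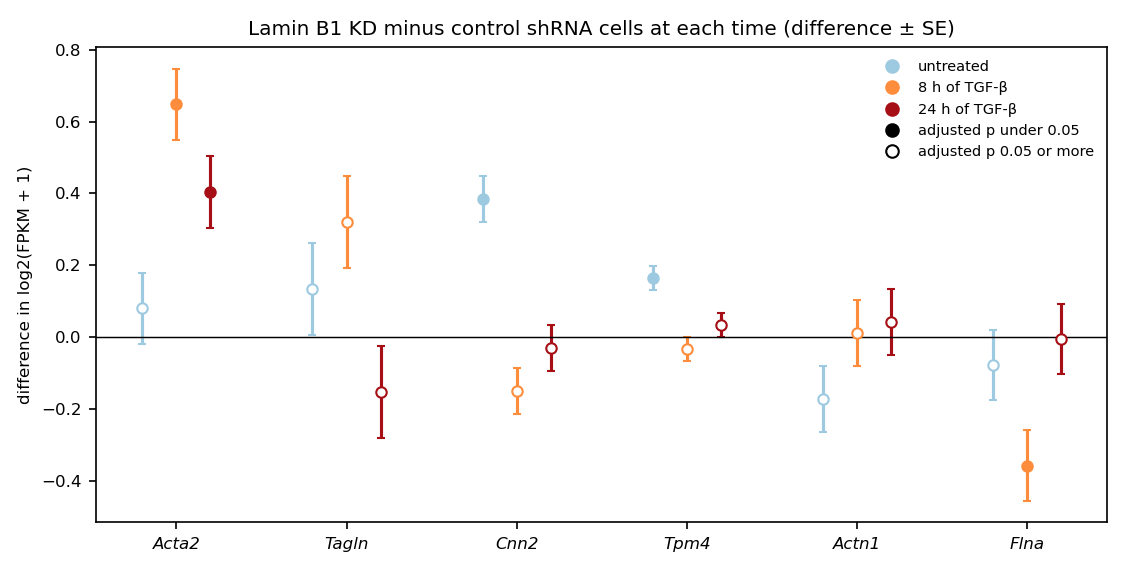
KD minus control shRNA cells in log2(FPKM + 1) ± SE of the fit, for the 6 tested genes without TGF-β (light blue), at 8 h (orange) and at 24 h (dark red), with filled points for an adjusted p under 0.05. Acta2 lies above 0 at 8 h (0.65) and 24 h (0.40), Flna below 0 at 8 h (-0.36), and Cnn2 and Tpm4 have a filled point only without TGF-β (0.39 and 0.16).

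Whether the response itself differed was tested as the KD response minus the control response. At 8 h the difference was called for 1 of the 6 genes, Cnn2 (-0.54 ± 0.09, adjusted p = 0.0236), beside 4.06% of all genes. At 24 h it was again called for Cnn2 alone (-0.42 ± 0.09, adjusted p = 0.04), beside 4.72%. Without KD 24 h replicate 1 the 24 h difference was 0.50 for Acta2 and 0.39 for Actn1. With all libraries it was 0.32 and 0.21, and neither was called. Cnn2 started 1.32-fold higher in KD cells, fell where control cells rose at 8 h, and reached 177 FPKM against 180 in control cells at 24 h. The 8 h call was lost when any of 5 single libraries was left out and the 24 h call when any of 4 was, with differences between -0.56 and -0.33. For Acta2 the 8 h difference was 0.57 ± 0.14 (adjusted p = 0.0617), and for Tpm4 it was -0.20 ± 0.05 (adjusted p = 0.0593), both short of the threshold. The Acta2 difference was called under 3 alternatives, a constant of 0.1 (1.39, adjusted p = 0.0384), only the groups compared (0.57, adjusted p = 0.0166) and quantile normalization (0.62, adjusted p = 0.0472).

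The actomyosin list of 46 other genes covers the remaining parts of the machinery (actins, myosins, kinases, small GTPases, cross-linkers, adhesion proteins and the serum response factor pathway). In parental cells 43 were tested, 24 rose and 8 fell at 8 h, and 26 rose and 8 fell at 24 h, with a median of 0.25 and 0.44. The 26 include Actc1, also on the heart muscle list, whose mean went from 67.9 to 80.8 FPKM. Of all genes tested in parental cells, 22.4% rose and 32.1% fell at 8 h, and 33.4% rose and 37.1% fell at 24 h. In control cells 26 of 42 rose and 8 fell at 24 h (25.5% and 45.1% of all genes), and in KD cells 28 rose and 10 fell (28.6% and 43.3%). The largest rises in parental cells at 24 h were those of Palld (palladin, an actin-bundling protein, from a mean of 5.26 to 35.7 FPKM, 2.55), Zyx (zyxin of focal adhesions, from 26.2 to 141, 2.38) and Rhob (a small GTPase, from 16.8 to 57.0, 1.70). The largest falls were those of Lima1 (an actin-bundling protein also called EPLIN, from 53.0 to 13.9 FPKM, -1.86), Mylk (myosin light chain kinase, from 4.98 to 1.48, -1.27) and Diap3 (a formin, from 12.1 to 5.01, -1.12). The actin-binding members thus rose beside most, and not all, of the machinery, and Mylk was among the genes that fell. Rock1 and Rock2, other kinases of the list, were not called at 24 h in parental cells. Their means went from 16.1 to 14.8 and from 29.1 to 26.8 FPKM.

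**Figure D4:**
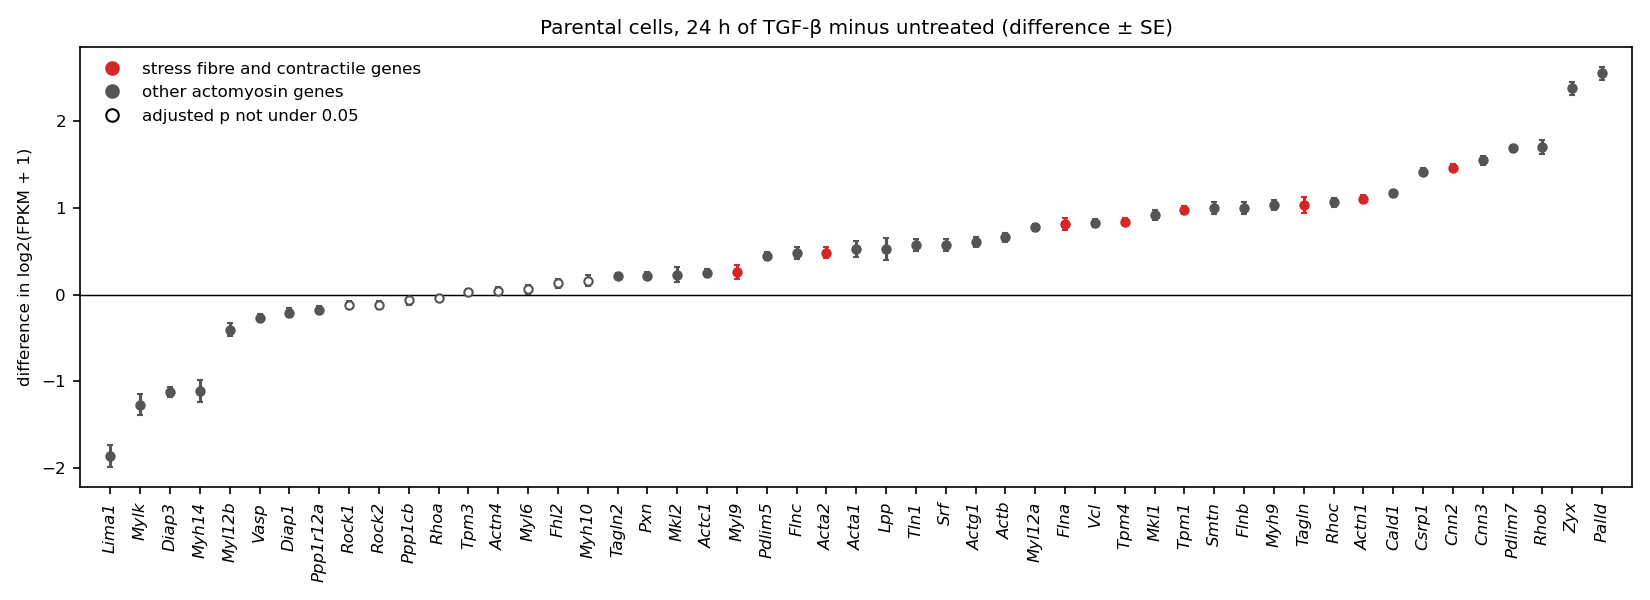
Difference in log2(FPKM + 1) ± SE of the fit between parental cells after 24 h of TGF-β and untreated, for the 8 tested stress fibre and contractile genes (red) and 43 other actomyosin genes (grey), sorted by value, with open points for an adjusted p of 0.05 or more. All 8 red points lie above 0, between 0.26 and 1.46, and the grey points run from -1.86 (Lima1) to 2.55 (Palld). The grey points include Actc1, which is also on the heart muscle list.

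KD and control cells differed at 8 h in 17 of the 42 tested genes of this list, 8 higher and 9 lower in KD cells. That is 40.5% of those tested, beside 35.8% of all genes. The lower genes were led by Flnc (a filamin of muscle, 1.96 FPKM against 5.07, -1.04), Vcl (vinculin, 49.7 against 78.6, -0.65) and Myh10 (a non-muscle myosin heavy chain, 1.92 against 3.23, -0.53). The higher genes were led by Mylk (2.21 against 1.02 FPKM, 0.67), Lima1 (13.4 against 8.84, 0.55) and Myh14 (another non-muscle myosin heavy chain, 1.11 against 0.469, 0.52). Differences of the same sign were already called without TGF-β for Vcl (-0.68), Mylk (0.49), Lima1 (0.32) and Myh14 (0.54), and these 4 and Flnc were called at 24 h as well (Vcl -0.65). Mylk, Lima1 and Myh14 were also genes that fell in parental cells under TGF-β (Myh14 by 1.11 on the log2 scale). The difference between KD and control responses was called for none of the 42 at 8 h by limma at an adjusted p under 0.05, with 8 at an unadjusted p under 0.05, and for 2 of them at 24 h (Rhoa 0.24 and Fhl2 -0.29), which is 4.76% beside 4.72% of all genes.

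The genes most like the listed ones in pattern were found by Pearson's r with the mean of the 6 tested members (each on the log2(FPKM + 1) scale) over the 12 shRNA libraries. They were Sertad4 (r = 0.996), Man1c1 (0.996), Fn1 (0.993), Tgfb1i1 (0.993) and Fbn1 (0.992), and over the 6 parental libraries their r was 0.984, 0.980, 0.991, 0.998 and 0.967. Fn1 (fibronectin), for example, had means of 32.7, 81.2 and 505 FPKM in control cells and 45.6, 79.0 and 679 in KD cells. These correlations are descriptions, since the libraries share the time course.

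Lamin B1 peaks were placed on the genes with GENCODE annotation of mm9, and a gene was taken as lamin B1 + if any peak fell between 2500 bp upstream of its 5′ end and its 3′ end. In untreated cells 2 of the 10 genes had such a peak (19.9% of 20994 matched genes did), at 8 h 6 (38.8%) and at 24 h 3 (29.4%). The list lengths differ, with 4645, 10484 and 7083 peaks, the depth behind them is unknown, and each is 1 library. The shares of these genes therefore moved with those of all genes, in the same order of times.

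At 8 h the lamin B1 + genes were Tpm1, Tpm2, Tpm4, Actn1, Flna and Cnn2, and in 5 of them a peak covered the RefSeq start of transcription (all but Actn1, whose peak began just inside the gene). Cnn2 had a peak over its start at 8 h only, chr10:79450995-79452112, which spans the whole upstream sequence printed above, with a score of 51.7 near the minimum of 50 at which the lists end. Further Cnn2 peaks lay in the gene at 8 h, and those at its 3′ end in untreated cells and at 8 h cover the start of the neighbouring gene Abca7 (scores 134 and 170). The Flna peak, chrX:71490831-71492288 with a score of 115, lies 3600 bp inside the longest annotated transcript and over the RefSeq start. The Tpm2 peak, chr4:43535358-43536895 with a score of 110, was found at 8 h only, over a gene that stayed at or below 0.553 FPKM at all times.

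Tpm1 was the only gene of the list with a lamin B1 peak at all 3 times. Its peaks at the 5′ end of the gene were present in untreated cells (score 76.3) and at 8 h (91.2), and those about 5.6 kb inside, over the start of shorter transcripts, at all 3 times (92.8, 114 and 79.0). Actn1 and Tpm4 gained a peak at the start at 8 h (scores 77.2 and 63.3) and kept it at 24 h (88.4 and 85.8). These 2 genes, together with Flna and Cnn2, are the 4 called higher in RNA at 8 h in parental cells. Tpm1, with peaks at all times, was not called at 8 h, and Tpm2, with a peak at 8 h only, was below the filter. Cnn2 already had a peak at its 3′ end in untreated cells. A link between peaks and RNA was not tested. Acta2, Tagln, Myl9 and Cnn1 had no lamin B1 peak in their region at any time, and the nearest to Acta2 lay 62075 bp or more away. The paper made this ChIP-seq from a fraction enriched in euchromatin, with large fragments left out of sequencing. A region without a peak is therefore not shown to be free of lamin B1.

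ATAC-seq, which marks open chromatin, gave peaks in the region of 2 of the 10 genes in untreated cells (37.0% of all genes), 3 at 8 h (32.9%) and 6 at 24 h (60.0%), from lists of 9782, 10340 and 33811 peaks. At 24 h the 6 genes were the same as those lamin B1 + at 8 h. Actn1 had an ATAC peak over its start at all 3 times (scores 131, 106 and 475) and 3 more within its introns at 24 h only. Tpm4 had a peak over its RefSeq start at 8 and 24 h (53.4 and 299), and Tpm1 and Flna at 24 h (145 and 124). Cnn2 had none over its start, and its upstream ATAC peak, present at all times, covers the start of the gene annotated as ORF61. Acta2, Tagln, Myl9 and Cnn1 again had no peak in their region, although 3 of them were tested and all 3 rose in parental cells by 24 h, and the nearest ATAC peak to Acta2 lay at least 34438 bp away. A list of peaks with scores of 50 or more does not show that a region without one is closed.

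**Figure D5:**
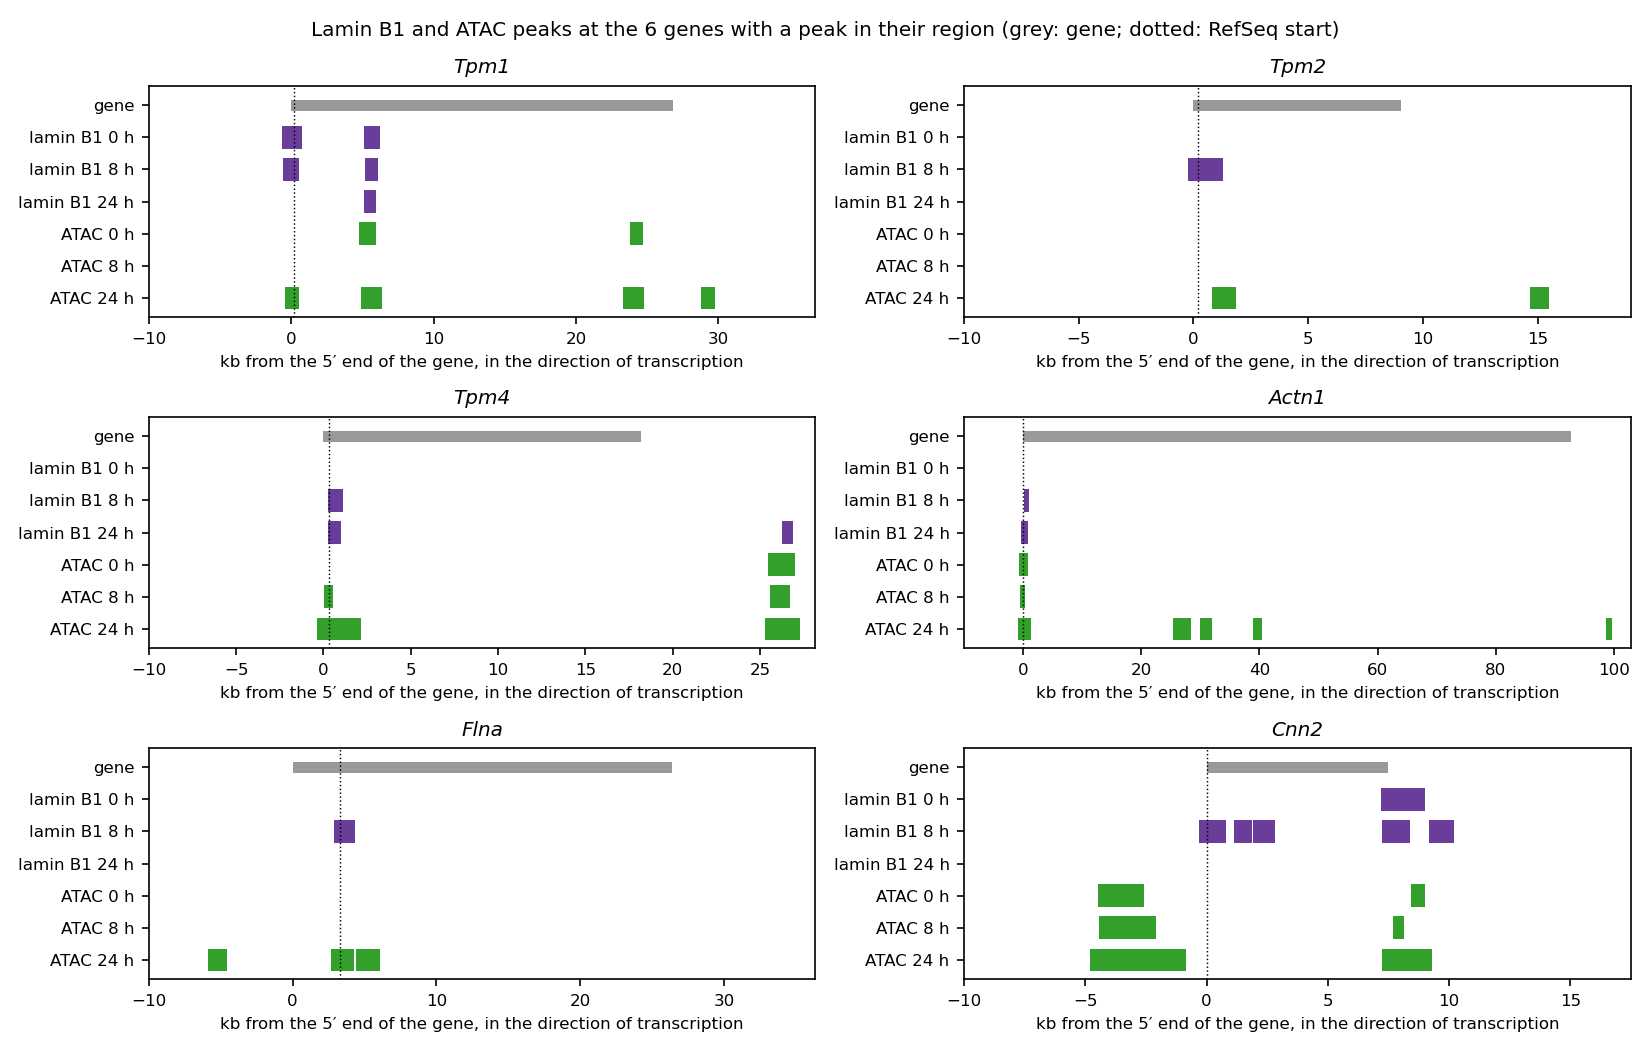
Lamin B1 (purple) and ATAC peaks (green) at 0, 8 and 24 h of TGF-β, by distance in kb from the 5′ end of the annotated gene (grey bar), for the 6 genes with a peak in their region, with a dotted line at the RefSeq start. Lamin B1 peaks lie at the dotted line at 8 h in Tpm1, Tpm2, Tpm4, Flna and Cnn2, and the number of ATAC peaks is highest at 24 h.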

How the data were processed

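The authors computed the deposited FPKM values, 1 column per library. Their processing notes name Bowtie, TopHat and Cufflinks and the build mm9, with no version. The tables have no header line, so each column was matched to its library through the order given in the table's own title, and Lmnb1 was lower in every KD column than in every control column of the same time. The authors deposited peaks with a MACS score, whose lowest value is 50, and no reads, so depth is unknown. Whether IgG entered the peak calls is not given in the sources used here.

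In each table, genes that reached 1 FPKM in 2 or more libraries were tested as log2(FPKM + 1) with limma 3.58.1 in R 4.3.3, with a trend and with all libraries of a table in a single fit, at a Benjamini-Hochberg adjusted p under 0.05 over all genes tested. With 2 libraries a group, the fit shares 1 estimate of spread. Peaks were matched to GENCODE genes of NCBIM37 (mm9) by symbol, and RefSeq promoters of GRCm38.p6 were placed on mm9 by exact match. The steps were tested on simulated data. The alternatives comprised quantile normalization, a constant of 0.1 in place of 1, testing without the filter, fitting only the groups compared, a 2-fold minimum, a replicate block, each library left out, and other peak rules.

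The members and gene lists were chosen with earlier results of these data known. The genes named are the 10 members, Lmnb1, of the actomyosin list the 3 called genes with the largest rise and fall in parental cells at 24 h and between KD and control cells at 8 h, and the 5 genes most correlated with the members. The heart muscle list, and the other genes named (Rhoa and Fhl2 among them), were chosen after their values were seen. Hi-C data were not analysed here.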

Additional observations from a re-analysis of the deposited data

Results flagged for a closer look

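The TGF-β response of Cnn2 differed between KD and control cells by the test of the difference itself. At 8 h the KD response minus the control response was -0.535 in log2(FPKM + 1), and at 24 h it was -0.415, with adjusted p of 0.0236 and 0.04 by limma. The means behind them were 52.0, 43.3 and 177 FPKM in KD cells and 39.5, 48.2 and 180 FPKM in control cells at 0, 8 and 24 h. At 8 h both KD libraries fell below both untreated KD libraries while both control libraries rose. Both differences contain the same untreated libraries, and single libraries decide both calls. Their cause was not tested.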

How the results depend on the processing

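Over the single genes, 716 of 804 alternative values kept their direction and side of the threshold, 72 lost a call (35 of them to the 2-fold minimum), 15 gained one and 1 turned its sign. That was Actn1 between KD and control cells at 24 h, from -0.136 without KD replicate 2 to 0.221 without replicate 1. With a 2-fold minimum the members called at 8 h went to 0 in parental, 0 in control and 1 in KD cells. The shares of all genes were 4.3%, 8.58% and 10.7%. In parental cells the members called went to 3 at 24 h (11.8% of all genes) and 1 from 8 to 24 h (3.63%). Each KD against control comparison and each difference of response went to 0, with at most 0.803% of all genes called. When only the groups compared were fitted, KD against control gave 0, 4 and 0 calls at the 3 times. The shares of all genes were 6.39%, 48.6% and 6.2%, against 19.7%, 35.8% and 28.3% with all groups fitted. The differences of response gave 2 calls at 8 h (6.24% of all genes) and 0 at 24 h (0.769%). An added constant of 0.1 gave 0 calls for KD against control at 24 h (28.3% of all genes). For the difference at 8 h it gave 2 (3.29%). Quantile normalization gave 2 for each difference (4.16% and 4.48% at 8 and 24 h), and no filter 0 for the 24 h difference (2.91%). Leaving out single libraries also moved the counts in KD cells at 8 h, between KD and control cells, and for both differences. Each such fit leaves 1 library in a group, and the share of all genes called moved as well. The share of all genes called higher and lower under quantile normalization was 34.1% and 34.1% in control cells at 24 h, against 25.5% and 45.1%, 30.0% and 35.2% in KD cells at 8 h, against 23.0% and 44.8%, and 36.0% and 35.8% in KD cells at 24 h, against 28.6% and 43.3%. The share of the parental split moved less. Replicate numbers were not shown to pair the shRNA libraries, since 2 of 15 pairs of groups had a correlation of deviations over 0.1 (-0.135 to 0.368). A replicate block changed 1 call, Tagln in KD cells at 8 h (0.326, adjusted p = 0.0656), and left 5 called there. The parental columns carry no replicate number, so no block was fitted. Untreated peak counts were 1 for lamin B1 and 1 for ATAC within 2500 bp of the start, 1 for lamin B1 with at least 50% of the peak inside, and 4 for ATAC with 10000 bp on each side. Of the counts of 6, that of lamin B1 at 8 h was 4 with peaks at or above the median score and 5 within 500 bp of the start, and that of ATAC at 24 h was 5 and 3. FPKM without counts gives no floor for the low genes, and 2 libraries a group leave calls near the threshold to single libraries.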
